A study of Danio rerio with 2 samples.

Results

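The sugar chains on cell-surface and secreted proteins and lipids are finished in the Golgi by transferases that add their outermost sugars. The genes described here encode 4 groups of them: sialyltransferases, fucosyltransferases, the b4galt galactosyltransferases and the b3gnt N-acetylglucosaminyltransferases. They were taken as every gene whose symbol begins with st3gal, st6gal, st8sia, fut and a digit, b4galt or b3gnt and that had at least 20 unique molecular identifiers (UMIs, each marking 1 captured RNA molecule) over both libraries. Of 56 symbols that match, 54 passed this minimum, among 20422 genes that reached it and 25432 in the files. They are 25 sialyltransferase, 8 fucosyltransferase, 8 b4galt and 13 b3gnt genes. The other two, st3gal1 with 15 UMIs and st3gal1l with 10 UMIs, fell below the minimum, and the lowest above it were b3gntl1 with 27 and fut7, st3gal1l3 and st6galnac1.2 with 28.

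As background, b4galt enzymes add galactose to a terminal N-acetylglucosamine and b3gnt enzymes add N-acetylglucosamine back onto galactose, so that alternation of both extends a lactosamine chain. Sialic acid then caps galactose through an α2,3 link (st3gal) or an α2,6 link (st6gal), st6galnac enzymes place it on N-acetylgalactosamine, and st8sia enzymes build sialic acid onto sialic acid. Fucose is put on the chain ends by fut7 and fut9 type enzymes, and on the core of N-glycans by fut8. mgat4b, the gene targeted in the study, encodes a transferase that starts one of the N-glycan branches on which these sugars are placed.

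The study made 1 single-cell library from each of its groups, both from zebrafish embryos at 36 hours post fertilization, neither of them treated with a drug. Both groups received a plasmid in which the mitfa promoter, active in the pigment cell lineage, drives Cas9 and GFP, and GFP-positive cells were sorted. The control carried non-targeting guides and the mutant carried guides against mgat4b. The mutation is thus made somatically, where the mitfa promoter drives Cas9 in cells that carry the plasmid. Which cells were edited was not read from the counts, so a mutant cell here means a cell of the mutant library. How many embryos were pooled was not given in the sources used here. With 1 library a group there is no replicate, so no p-value is given, and every interval covers counting error only.

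After removing cells with 200 genes or fewer or with 5% or more mitochondrial UMIs, 1771 control and 3860 mutant cells remained, with medians of 4919 and 6480 UMIs. The libraries shared 2 cell barcodes. Cells below 1000 UMIs made up 30.2% of the control and 9.22% of the mutant library. The cell groups used for ratios below had the opposite order, with control cells the deeper at the median. mgat4b itself was at 80.8 CPM (UMIs of the gene per 1000000 UMIs) in control cells and 64.3 CPM in mutant cells, a ratio of 0.796 (95% interval 0.743 to 0.854). With each cell group weighted alike in both libraries its ratio was 0.932 (0.866 to 1.0), an interval that includes 1. As background, a guide-made deletion need not lower a count of transcript 3′ ends, and whether this holds here was not tested. The study itself reported significantly less mgat4b transcript by qRT-PCR in sorted GFP-positive cells. That measure was relative to beta actin rather than to all UMIs, and the stage of those cells was not found in the sources used here. The labels call the sorted cells melanocytes. The 9 melanophore markers, among them dct, tyr and pmela, summed to 54.8 CPM in the control library and 132 CPM in the mutant with none at 0, and no cluster met the rule for a melanophore-like name.

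Cells were grouped without use of the 54 genes into 24 clusters, which gave 13 classes named "-like" from marker genes and 8 clusters that stayed unnamed and are called by number. Of the unnamed ones, cluster 11 was led by hs3st4, grid1b, vgf and nlgn1, cluster 7 by nhlh2, dlb, insm1a and elavl3, cluster 2 by plp1a, gfap, ptprz1b and sox19a, and cluster 9 by stm, oc90 and eya1. Cluster 15 was led by cldnh, ponzr5, krt92 and he1.1, cluster 19 by fabp7b, ccn1l2 and slc4a4a, and cluster 12 by apobb.1, afp4 and tfa. Cluster 0, led by zgc:174154 and he1.2, held 600 control and 118 mutant cells at medians of 724 and 616 UMIs. The 10 neuron markers summed to 7495 CPM in control and 9154 CPM in mutant neuron-like cells, and to 10708 and 13624 CPM in cluster 11, although too few of them led that cluster for it to take the name.

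All 54 genes had a UMI in each library, and together they held 796 CPM of the control and 616 CPM of the mutant library. Their summed level differed widely between cell groups. With both libraries summed, cluster 11 held 1932 CPM, endothelium-like cells 1375 CPM and neuron-like cells 1088 CPM, against 335 CPM in xanthophore-like and 314 CPM in muscle-like cells. The make-up differed as well. Sialyltransferases held 976 CPM and b3gnt genes 35.0 CPM in cluster 11, whereas in epidermis-like cells the sialyltransferases held 119 CPM and the b3gnt genes 205 CPM. Fucosyltransferase UMIs were scarcest in xanthophore-like cells, at 4.12 CPM. UMIs were counted at transcript 3′ ends and were not divided by transcript length.

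**Figure D1:**
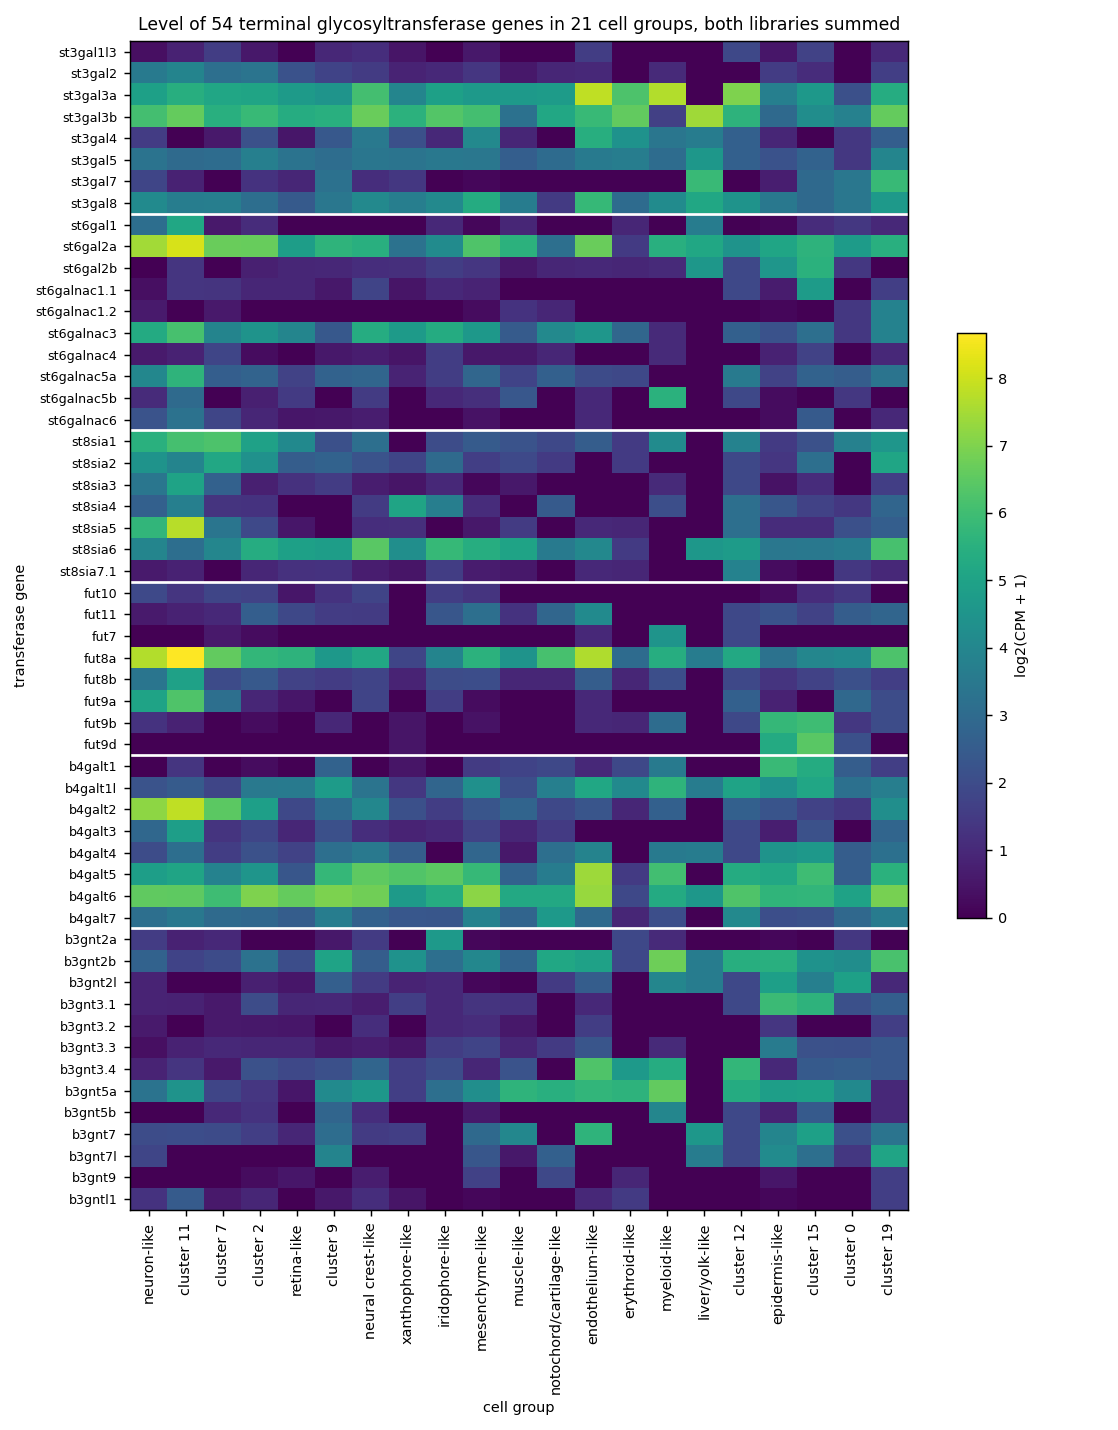
Each row is a transferase gene, ordered by symbol family, each column is a cell group, and colour gives log2(CPM + 1) with both libraries summed. Bright cells for b4galt2, fut8a, st8sia5 and st6gal2a sit in the neuron-like column and cluster 11, and those for b4galt1, fut9b, fut9d and b3gnt3.1 in the epidermis-like column and cluster 15.

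Many of these genes were concentrated in 1 cell group. Of the 44 genes with at least 50 UMIs, 18 (40.9%) had at least 40% of their UMIs in 1 group, against 24.7% of all 18232 genes at that minimum. Epidermis-like cells led 9 of the 18, namely b4galt1, b4galt4, fut9b, fut9d, b3gnt2l, b3gnt3.1, b3gnt3.3, b3gnt7l and st6gal2b. Neuron-like cells led b4galt2 and fut9a, cluster 11 led st6gal1 and st8sia5, and mesenchyme-like cells led st3gal4 and st3gal8. The last of the 18 were st3gal7 in cluster 19, st6galnac1.1 in cluster 15 and st6galnac5b in myeloid-like cells. A share also grows with the size of a group, so levels in CPM are given below. The group with the highest level, taken over groups with at least 10 cells and a gene with at least 5 UMIs there, was the same in both libraries for 31 of 43 genes (72.1%), against 51.8% of 17768 genes overall.

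The neuronal genes come first. b4galt2, a galactosyltransferase of the lactosamine chain, stood at 169 CPM in control and 110 CPM in mutant neuron-like cells, and at 279 and 175 CPM in cluster 11. In epidermis-like cells the same gene was at 5.28 and 2.44 CPM. b4galt3 was at 41.3 and 14.2 CPM in cluster 11 and at 6.13 and 6.72 CPM in neuron-like cells. Both galactosyltransferases thus had their highest level in cluster 11, the group with the highest neuron marker level, in each library.

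Among fucosyltransferases, fut8a, which encodes the core fucosyltransferase, was at 195 CPM in control and 210 CPM in mutant neuron-like cells and at 439 and 372 CPM in cluster 11. Its other high group was endothelium-like cells, at 301 and 152 CPM, where 22.9% of its UMIs came from 1 cell. fut8b, its second copy, had a lower count with a like order of groups, at 27.5 and 33.1 CPM in cluster 11 and at 6.13 and 14.1 CPM in neuron-like cells. fut9a, whose mammalian counterpart makes the Lewis x end, was at 90.3 and 63.1 CPM in cluster 11 and at 29.2 and 35.6 CPM in neuron-like cells, and these groups together with cluster 7 held most of its 260 UMIs.

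Sialyltransferases of several link types shared this distribution. st8sia5, a ganglioside enzyme in mammals, had 190 CPM in control and 234 CPM in mutant cells of cluster 11, 53.8 and 47.0 CPM in neuron-like cells, and 17.3 and 1.94 CPM in cluster 7. st6gal2a, an α2,6-sialyltransferase, was at 317 and 248 CPM in cluster 11 and at 188 and 161 CPM in neuron-like cells, but also reached 122 and 87.9 CPM in cluster 2 and 82.9 and 72.9 CPM in mesenchyme-like cells. st6gal1 was more restricted, with 36.7 and 33.1 CPM in cluster 11, 9.91 and 4.70 CPM in neuron-like cells, and 50.6% of its 89 UMIs in cluster 11. st8sia3 was at 32.1 and 31.6 CPM, and st6galnac5a at 39.8 and 58.4 CPM, in cluster 11.

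The st8sia genes did not all follow that order. st8sia1, the counterpart of mammalian GD3 synthase, was highest among control cells in cluster 7, at 107 CPM, and among mutant cells in cluster 11, at 86.8 CPM. Of its 151 UMIs in cluster 7, 20.5% came from 1 cell. st8sia2, a polysialyltransferase of the developing nervous system, was at 36.7 and 34.0 CPM in cluster 7, 28.9 and 15.1 CPM in cluster 2, and 13.8 and 14.2 CPM in cluster 11. Its levels in cluster 11 were thus below those in cluster 7, the reverse of st8sia5.

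**Figure D2:**
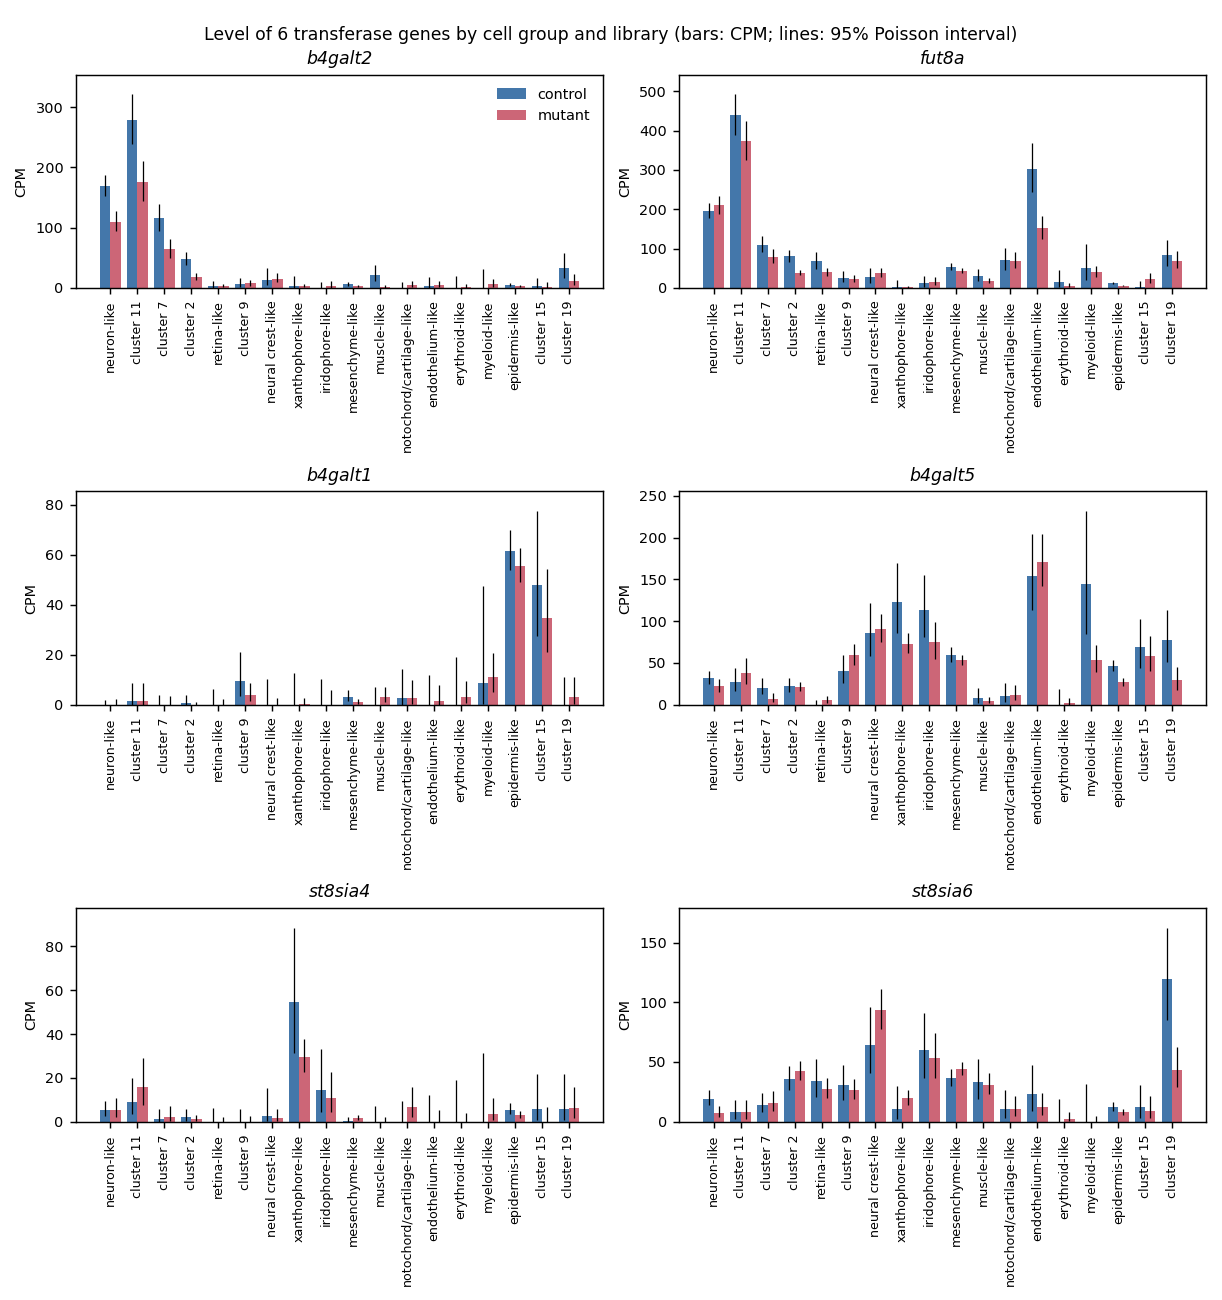
Bars give the level of 6 genes in CPM in each cell group, blue for the control and red for the mutant library, and lines give 95% Poisson intervals for counting error. b4galt2 peaks in cluster 11 at 279 and 175 CPM, b4galt1 in epidermis-like cells at 61.6 and 55.7 CPM, and st8sia4 in xanthophore-like cells at 54.5 and 29.5 CPM. Cluster 0, cluster 12 and liver and yolk-like cells, which were shallow or had few control cells, are not drawn.

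The epidermal genes split between the pair of epidermis-like clusters. Cluster 3 was led by col7a1, col5a3b, cldni and lamb4 and cluster 6 by agr1, anxa1c, evpla and icn2. As background, col7a1 and lamb4 encode proteins of the basement membrane zone and evpla, by its mammalian counterpart, a protein of the outer epidermis. Of 28 transferase genes with at least 20 UMIs in these clusters, 8 (28.6%) were at least 5-fold higher in cluster 6 on the CPM + 1 scale, against 4.69% of all 12503 genes with that many UMIs, and 5 (17.9%) at least 5-fold higher in cluster 3, against 12.5%, both libraries summed. The genes overall include those from which the clusters were made.

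Cluster 6 had the higher levels of several genes for chain extension. b4galt1, the galactosyltransferase, had 111 CPM (95% interval 101 to 121) in cluster 6 against 10.1 CPM (7.44 to 13.5) in cluster 3. b3gnt3.1, whose mammalian counterpart extends O-glycan cores, had 122 CPM against 0.647 CPM, from 519 and 3 UMIs, b3gnt7l 35.3 against 0.431 CPM, b3gnt7 27.5 against 2.16 CPM, and b3gnt3.3 23.5 CPM against 0 UMIs. Among the genes that cap the chain, fut9b had 112 against 1.08 CPM, st6gal2b 46.1 against 1.08 CPM, and fut9d 80.6 CPM against 0 UMIs. No UMI in cluster 3 allows at most 0.795 CPM for fut9d and for b3gnt3.3. The order was the same in each library: fut9d was at 63.5 CPM in control and 93.7 CPM in mutant cells of cluster 6, b4galt1 at 119 and 105 CPM, and b3gnt3.1 at 110 and 131 CPM.

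Cluster 3 held other members of the same families. st6gal2a was at 61.4 CPM there against 1.88 CPM in cluster 6, the reverse of st6gal2b. b3gnt2b was at 71.8 against 11.5 CPM, b3gnt2l at 40.7 against 15.7 CPM, and b4galt6, which makes lactosylceramide in mammals, at 80.2 against 16.0 CPM. st3gal8 at 18.1 against 1.41 CPM, st8sia6 at 17.7 against 1.18 CPM, and st8sia4 at 7.54 against 0.235 CPM also stood higher in cluster 3. b3gnt5a, a glycolipid enzyme in mammals, b4galt1l and fut8a had overlapping intervals in the 2 clusters, for b3gnt5a 28.4 CPM (23.8 to 33.7) and 27.3 CPM (22.5 to 32.7).

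In neuron-like cells of either library fut9d had 0 UMIs, and b4galt1 likewise, against 343 and 519 UMIs in epidermis-like cells. The 13 epidermis markers summed to 1349 CPM in control and 1235 CPM in mutant neuron-like cells, and to 168826 and 167107 CPM in epidermis-like cells. At so low a share few UMIs of either gene could be expected in neuron-like cells, so 0 UMIs cannot tell whether free RNA was present. Cluster 15, where the 13 epidermis markers summed to 91128 CPM in the control library and 95003 CPM in the mutant, carried the same genes: fut9d was at 59.8 and 104 CPM, fut9b at 71.7 and 56.8 CPM, and b3gnt3.1 at 44.8 and 49.4 CPM. It also led st6galnac1.1, an O-glycan sialyltransferase gene, at 32.9 and 22.0 CPM from 11 and 12 UMIs.

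**Figure D3:**
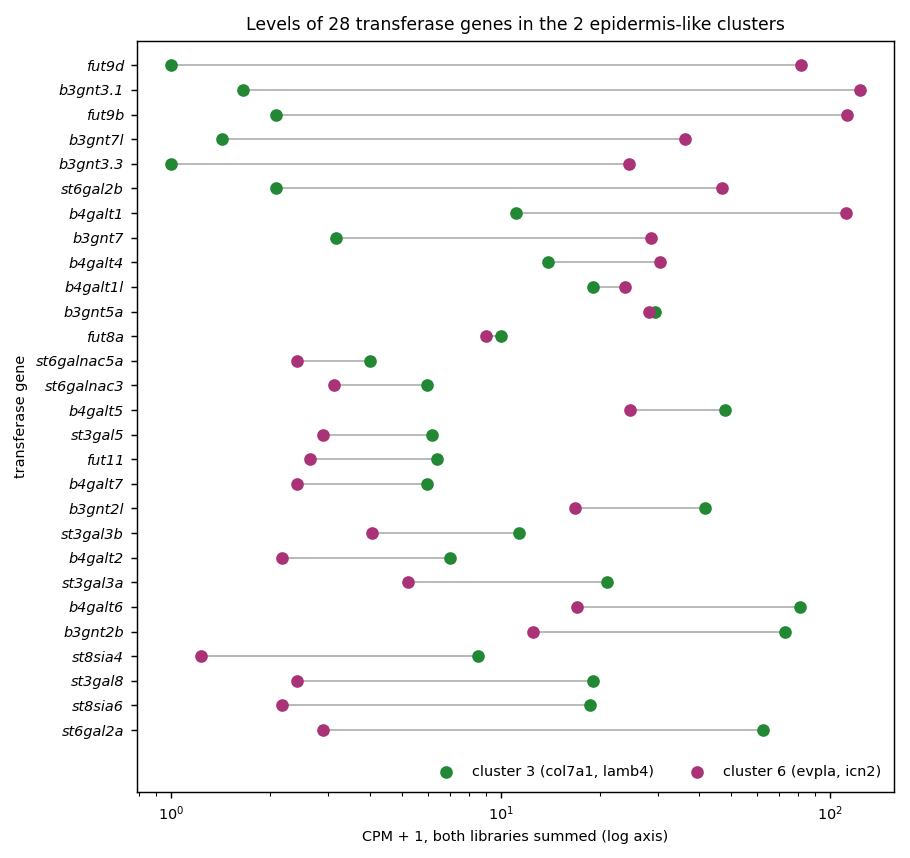
Each row is 1 of 28 transferase genes, points give CPM + 1 on a log axis in cluster 3 (green) and cluster 6 (purple), both libraries summed, and grey lines join the points of a gene. fut9d, b3gnt3.1, fut9b and b3gnt7l are far to the right in cluster 6, and st6gal2a is farthest to the right relative to cluster 6 in cluster 3, at 61.4 against 1.88 CPM.

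Pigment cells and their precursors are the cells the sort was aimed at. They were 20 control and 121 mutant neural crest-like, 29 and 329 xanthophore-like and 16 and 52 iridophore-like cells, so control values rest on few cells and are given without a call. Neural crest-like cells had the highest sum of the 9 melanophore markers of all cell groups, at 988 CPM in control and 1418 CPM in mutant cells. The melanophore marker slc45a2 was among their leading genes. b4galt5, a lactosylceramide synthase gene, was at 123 CPM in control and 73.1 CPM in mutant xanthophore-like cells, from 36 and 156 UMIs. It was at 114 and 74.7 CPM in iridophore-like and 86.0 and 90.8 CPM in neural crest-like cells. Levels in all 3 groups thus exceeded those of neuron-like cells. In the 20 control neural crest-like cells the 7 lens markers summed to 6054 CPM, against 5.43 CPM in the mutant ones, while the 10 neural crest markers summed to 1074 and 1168 CPM. The part of these lens transcripts in the values of the class was not tested.

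st8sia4, which encodes a polysialyltransferase, was highest in xanthophore-like cells in both libraries, at 54.5 CPM in the control library and 29.5 CPM in the mutant, from 16 and 63 UMIs, and this group held 38.7% of its UMIs. Iridophore-like cells followed at 14.2 and 10.9 CPM, and neural crest-like cells had 1 and 2 UMIs. Within the xanthophore-like class, cluster 14 had 43.1 CPM of st8sia4 and 125 CPM of b4galt5 and cluster 10 had 15.2 and 4.34 CPM. fut8a was near its floor in this class, with 0 UMIs in cluster 10 and 6 UMIs in cluster 14, at 3.98 CPM.

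Other members were counted in pigment groups too, not always at their highest level. b3gnt2a, a polylactosamine enzyme by its mammalian counterpart, was at 22.7 CPM in control and 24.9 CPM in mutant iridophore-like cells, which held 53.3% of its 45 UMIs. st8sia6 was at 63.8 and 93.1 CPM in neural crest-like cells and at 59.7 and 52.9 CPM in iridophore-like cells, against 10.2 and 19.7 CPM in xanthophore-like cells. st6galnac3, a ganglioside sialyltransferase in mammals, was at 30.5 and 42.7 CPM in neural crest-like and 51.1 and 32.7 CPM in iridophore-like cells. st6galnac3 was higher still in cluster 11, at 71.9 and 66.3 CPM, and in the control library st8sia6 was highest in cluster 19, at 119 CPM.

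Blood and vessel classes had sets of their own. fut7, whose mammalian counterpart makes the sialyl Lewis x ligand of selectins on leukocytes, had 20 of its 24 UMIs in myeloid-like cells, 1 of them from the 9 control cells of this class and 19 from its 57 mutant cells. st6galnac5b had 43 UMIs in mutant myeloid-like cells, 52.3 CPM, and 0 in the control, which allows up to 31.4 CPM there. b3gnt2b was at 179 and 97.2 CPM in the same class. The 10 myeloid markers, none at 0 with both libraries summed, came to 3376 CPM in the 9 control cells and 42434 CPM in the mutant cells of this class, and the part of that difference in these values was not tested. Endothelium-like cells had the highest level of st3gal3a in the control, 223 CPM, and 234 CPM in the mutant library, together with 154 and 171 CPM of b4galt5 and 121 and 57.0 CPM of b3gnt3.4. st3gal3a was not confined to this class. It had 191 UMIs in myeloid-like cells, 57.4% of their sialyltransferase UMIs, 84 in erythroid-like cells and 48 in cluster 12. In endothelium-like cells st3gal4, an α2,3-sialyltransferase, and st3gal8 were also high, at 45.8 and 40.3 CPM and at 49.1 and 57.0 CPM. Marker lists of other cells also differed in this class. The 13 epidermis markers summed to 10314 CPM in control and 2872 CPM in mutant endothelium-like cells and the 13 mesenchyme markers to 2695 and 312 CPM, against 4803 and 7191 CPM of the 8 endothelium markers. Their part in the values of fut8a, st3gal3a and the others was not tested.

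Mesenchyme-like cells held the largest shares of st3gal4, with 47.8% of its UMIs, and st3gal8, with 41.5%. st3gal8 was at 41.6 CPM in control and 37.9 CPM in mutant cells of this class, and st3gal4 at 24.1 and 12.1 CPM. b4galt6, with 4114 UMIs the most counted of all members, was spread widely, at 163 and 133 CPM in mesenchyme-like, 110 and 137 CPM in cluster 2 and 121 and 125 CPM in cluster 9. b4galt7, which acts on the linker of proteoglycans, was highest in notochord and cartilage-like cells in both libraries, at 25.9 and 24.5 CPM. In cluster 19, st3gal7 was at 35.8 and 67.8 CPM, and 45.9% of its 122 UMIs lay there.

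The design then asks how these levels compare between the mgat4b mutant and the control library. Over all cells, a gene was called where the ratio of mutant to control CPM was at least 2 in either direction and its 95% interval excluded 1. By that rule fut7 was higher, 1 of 54 genes (1.85%) against 4.44% of 20422 genes, and 7 were lower, 13% against 6.93%. The interval alone excluded 1 upward for 6 members (11.1%, against 17.7% of all genes) and downward for 24 (44.4%, against 36.2%), and included 1 for 24. The median log2 ratio of the members was -0.27, beside -0.15 for all genes. All genes shift upward by 0.14 on the log2 scale when the libraries are scaled by the trimmed mean of M-values instead of total UMIs.

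The 7 lower genes were b4galt2, b4galt3, fut9a, st3gal2, st6gal1, st6galnac6 and st8sia5. b4galt2 was at 46.8 CPM in the control library and 16.1 CPM in the mutant, a ratio of 0.345 (0.308 to 0.386). fut9a was at 8.72 and 3.65 CPM, a ratio of 0.418 (0.324 to 0.538), and st8sia5 at 16.9 and 7.75 CPM, a ratio of 0.460 (0.386 to 0.548). Those are genes with their highest levels in neuronal groups. st6gal1 had a ratio of 0.364 (0.231 to 0.567), b4galt3 of 0.429 (0.296 to 0.618), st3gal2 of 0.448 (0.326 to 0.613) and st6galnac6, from 47 UMIs, of 0.348 (0.182 to 0.649).

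The mix of cells also differed between the libraries. Neuron-like cells supplied 12.4% of control and 4.89% of mutant UMIs, cluster 11 3.82% and 2.08%, and cluster 7 5.74% and 3.38%. All 10 neuron markers were lower in the mutant library by their intervals, none was at 0, and their sum was 2017 CPM in the control library and 1162 CPM in the mutant. The 10 myeloid markers were all higher, and summed to 171 CPM in the control library and 1204 CPM in the mutant. Beyond the equal weights given next, the part of this mix in the ratios was not tested.

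With the levels of each cell group weighted by the same shares in both libraries, no member passed the size rule in either direction, against 3.13% of all genes upward and 3.90% downward. fut9a then had a ratio of 0.835 (0.651 to 1.07), st8sia5 0.874 (0.733 to 1.04) and fut7 1.75 (0.457 to 6.72), each with an interval that includes 1. b4galt2 then had a ratio of 0.596 (0.531 to 0.669), b4galt3 0.568 (0.395 to 0.816), st3gal2 0.579 (0.423 to 0.793), st6gal1 0.646 (0.419 to 0.997) and st6galnac6 0.523 (0.287 to 0.956). At these weights the interval excluded 1 upward for 6 members (11.1%, against 15.9% of all genes) and downward for 17 (31.5%, against 28.6%), shares near those of all genes. The median log2 ratio was -0.15 for members and -0.09 for all genes.

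Some genes stood apart only at equal weights. fut9d had a ratio of 1.13 (0.923 to 1.40) over all cells and of 1.55 (1.26 to 1.90) at equal weights, and b3gnt3.1 one of 0.940 (0.797 to 1.11) and 1.29 (1.09 to 1.52). The summed level of the 13 epidermis markers was 44688 CPM in the control library and 30435 CPM in the mutant. Its part in the ratios of these 2 genes, which epidermis-like cells led, was not tested. For the other genes they led, b4galt1, b4galt4, fut9b, b3gnt2l, b3gnt3.3, b3gnt7l and st6gal2b, the intervals at equal weights included 1. fut8b also moved up, from 1.16 (0.840 to 1.62) to 1.57 (1.13 to 2.18). b3gnt3.4 moved the other way, from 0.970 (0.746 to 1.27) to 0.576 (0.440 to 0.756). So did b4galt5, from 0.918 (0.838 to 1.01) to 0.783 (0.711 to 0.862), and b3gnt2b, from 0.930 (0.818 to 1.06) to 0.859 (0.749 to 0.985).

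The remaining genes did not pass the size rule over all cells, but the intervals of many excluded 1. Among the most counted, fut8a had a ratio of 0.602 (0.559 to 0.648) and st6gal2a one of 0.640 (0.597 to 0.686). At equal weights these were 0.811 (0.751 to 0.875) and 0.792 (0.737 to 0.851). st8sia1 was at 0.572 (0.493 to 0.664) and st8sia2 at 0.608 (0.494 to 0.749) over all cells. Other ratios were nearer to 1. st3gal5, whose mammalian counterpart makes the ganglioside GM3, was at 8.31 and 8.01 CPM, a ratio of 0.964 (0.781 to 1.19), and fut11 at 3.86 and 3.91 CPM, a ratio of 1.01 (0.743 to 1.39). b4galt1l had a ratio of 1.21 (1.03 to 1.42). Of the 10 members with fewer than 50 UMIs, fut7 and st6galnac6 passed the size rule. For the others, b3gnt2a, b3gnt3.2, b3gnt9, b3gntl1, st3gal1l3, st6galnac1.2, st6galnac4 and st8sia7.1, a 2-fold difference in at least 1 direction lay within the interval, so that a difference of that size was not detectable at this depth.

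**Figure D4:**
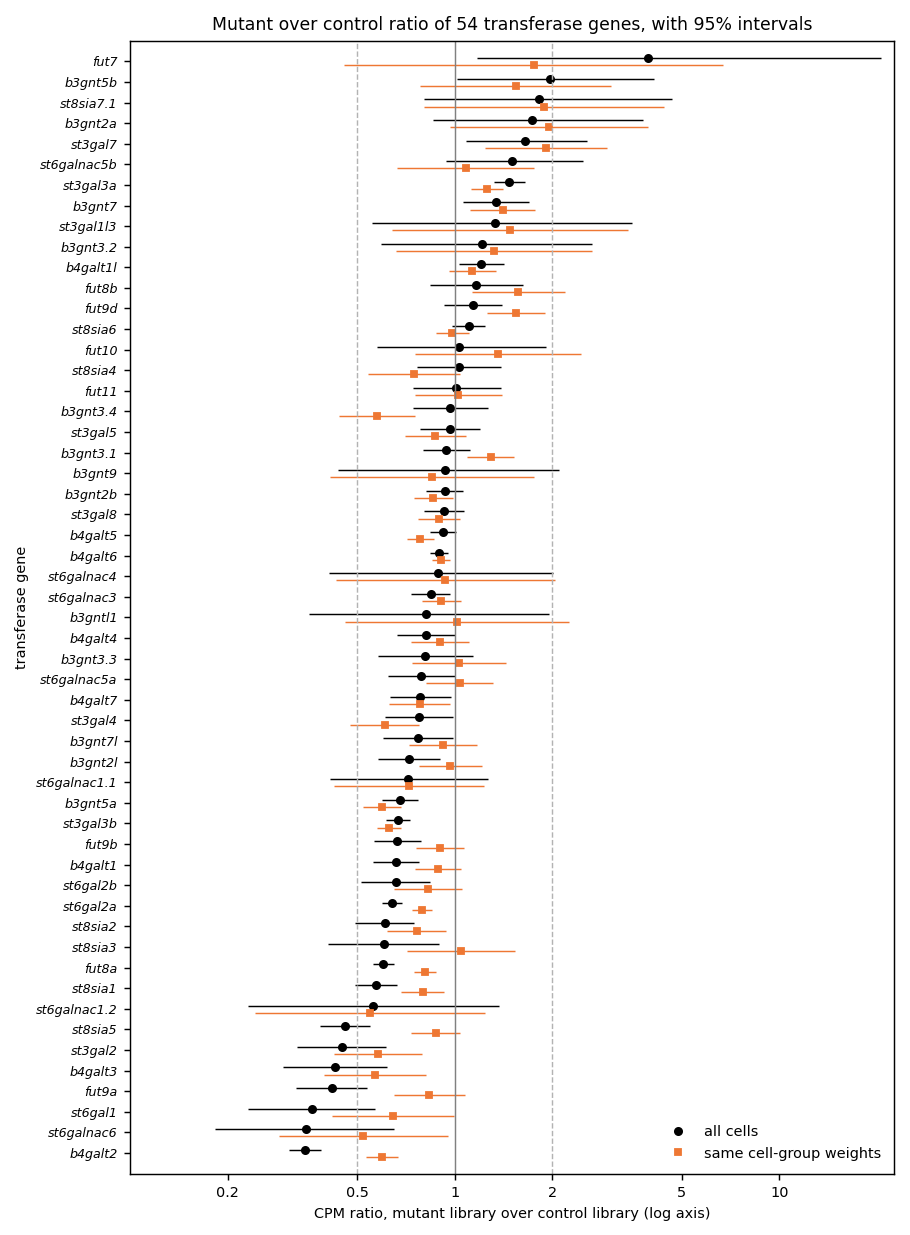
For each of 54 genes, black circles give the ratio of mutant to control CPM over all cells and orange squares the ratio with each cell group weighted alike in both libraries, on a log axis with 95% intervals for counting error. Dashed lines mark ratios of 0.5 and 2. The lowest black circles, from b4galt2 at 0.345 to st8sia5 at 0.460, have orange squares nearer to 1, and no orange square passes a dashed line.

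Summed by enzyme group over all cells, fucosyltransferases had a ratio of 0.670 (0.632 to 0.711), from 121 CPM in the control library and 81.3 CPM in the mutant. Sialyltransferases had 343 and 268 CPM, a ratio of 0.782 (0.756 to 0.809), and b4galt genes 236 and 183 CPM, a ratio of 0.776 (0.745 to 0.808). b3gnt genes were at 95.8 and 83.7 CPM, a ratio of 0.873 (0.820 to 0.930). At equal weights the ratios were 0.908 for fucosyltransferases, 0.841 for sialyltransferases and 0.831 for b4galt genes. After each cell was thinned to 836 UMIs, a UMI of any member was found in 45.0% of 1330 control cells (42.3 to 47.8) and in 39.8% of 3585 mutant cells (38.2 to 41.5), with 441 and 275 shallower cells left out. Without thinning these shares were 67.6% and 83.8%, in the opposite order.

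Within cell groups, ratios were taken in the 9 groups with at least 50 cells in each library, none of them a pigment or neural crest-like class. In all 9 the median depth was higher in control than in mutant cells. It was 10698.5 and 5527 UMIs in neuron-like cells, 17848 and 8450.5 in epidermis-like cells and 11037.5 and 6481 in cluster 2. In cluster 11 the medians were 4402 and 4190.5 UMIs. The part of depth in the ratios was not tested. Among 148 pairs of a member and a group with at least 20 UMIs, 4 were higher by the size rule (2.70%, against 4.22% of 84609 pairs of all genes) and 16 were lower (10.8%, against 7.67%). Scaled by the trimmed mean of M-values within the group, 4 were higher and 10 lower. Pairs of all genes were not counted at that scale, so these counts have no share to be set against.

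st3gal3b, an α2,3-sialyltransferase gene, accounted for 4 of the 16. Its level was 90.1 CPM in control and 32.9 CPM in mutant neuron-like cells, a ratio of 0.365 (0.261 to 0.502), from 191 and 49 UMIs. In retina-like cells it was at 69.4 and 29.3 CPM, a ratio of 0.422 (0.273 to 0.657). Cluster 2, at 86.8 and 40.1 CPM, had a ratio of 0.462 (0.356 to 0.599), and cluster 7, at 59.2 and 28.2 CPM, one of 0.477 (0.294 to 0.757). In these 4 groups st3gal3b was thus lower by the size rule, with no single cell holding over 7.87% of the UMIs of st3gal3b in any of them. Marker levels moved in some of them as well. The 10 neural progenitor markers summed to 1114 CPM in control and 609 CPM in mutant neuron-like cells, to 5979 and 3559 CPM in retina-like cells, to 4066 and 2976 CPM in cluster 2 and to 2208 and 2706 CPM in cluster 7. The 10 neuron markers summed to 313 and 138 CPM in retina-like cells and to 1554 and 627 CPM in cluster 2, but to 7495 and 9154 CPM in neuron-like cells and to 5455 and 6253 CPM in cluster 7. No marker of either list was at 0 in these groups with both libraries summed, and their part in the ratios of st3gal3b was not tested.

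Mesenchyme-like cells had 92.9 and 53.1 CPM of st3gal3b, a ratio of 0.571 (0.483 to 0.675), and cluster 11 had 127 and 67.8 CPM, a ratio of 0.534 (0.361 to 0.781). In all, the interval lay below 1 in 6 of 8 groups, and the ratio was below 1 in all 8. Scaled by the trimmed mean of M-values, the ratio of st3gal3b was 0.391 in neuron-like and 0.444 in retina-like cells, and 0.544 and 0.532 in clusters 2 and 7, past 2-fold only in the first pair. Of 9405 genes tested in at least 5 groups, 1.19% were lower by the size rule in at least 4, and of 17 members tested so, st3gal3b was the 1 that was. That count was set after the values of st3gal3b were seen.

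In pigment groups the levels of st3gal3b did not show that order. Neural crest-like cells had 97.1 CPM in the control library and 102 CPM in the mutant, a ratio of 1.05 (0.722 to 1.58), and xanthophore-like cells 44.3 and 46.9 CPM, a ratio of 1.06 (0.591 to 2.06). Iridophore-like cells had 51.1 and 98.1 CPM, a ratio of 1.92 (1.12 to 3.44), from 18 and 63 UMIs in 16 and 52 cells. The difference between neural and pigment groups was not tested, since each library is a single sample. For summed b3gnt genes the ratio in neural crest-like cells was 0.238 (0.146 to 0.385), from 40 and 34 UMIs in 20 control and 121 mutant cells. Of these 74 UMIs, b3gnt5a held 38. The lens markers of this class summed to 6054 CPM in control and 5.43 CPM in mutant cells, and their part in this ratio was not tested. In xanthophore-like cells the ratio of summed b3gnt genes was 0.398 (0.233 to 0.71), from 19 and 55 UMIs, and that of b4galt genes 0.693 (0.507 to 0.966). Of the 74 b3gnt UMIs there, b3gnt2b held 50. The 13 epidermis markers summed to 4236 CPM in control and 1686 CPM in mutant xanthophore-like cells, and the 13 mesenchyme markers to 583 and 179 CPM. The 10 xanthophore markers summed to 41664 and 47076 CPM. The part of these marker differences in both ratios was not tested. Intervals of the other enzyme group sums in neural crest-like, xanthophore-like and iridophore-like cells included 1. These control values rest on few cells.

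st3gal3a, the second copy of the same enzyme, did not share these ratios. It was at 24.1 CPM in control and 36.3 CPM in mutant neuron-like cells, a ratio of 1.51 (1.01 to 2.26), and at 8.04 and 26.8 CPM in cluster 9, a ratio of 3.33 (1.31 to 10.8) from 5 control UMIs. In epidermis-like cells st3gal3a was at 16.3 and 9.36 CPM, a ratio of 0.573 (0.384 to 0.849). Over all cells st3gal3a was at 27.0 and 39.8 CPM, a ratio of 1.47 (1.32 to 1.64), and st3gal3b at 60.1 and 40.2 CPM, a ratio of 0.668 (0.615 to 0.727). At equal weights the ratios were 1.26 (1.12 to 1.41) for st3gal3a and 0.627 (0.575 to 0.684) for st3gal3b. Reads that both copies could share may be lost or assigned unevenly, which was not tested.

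**Figure D5:**
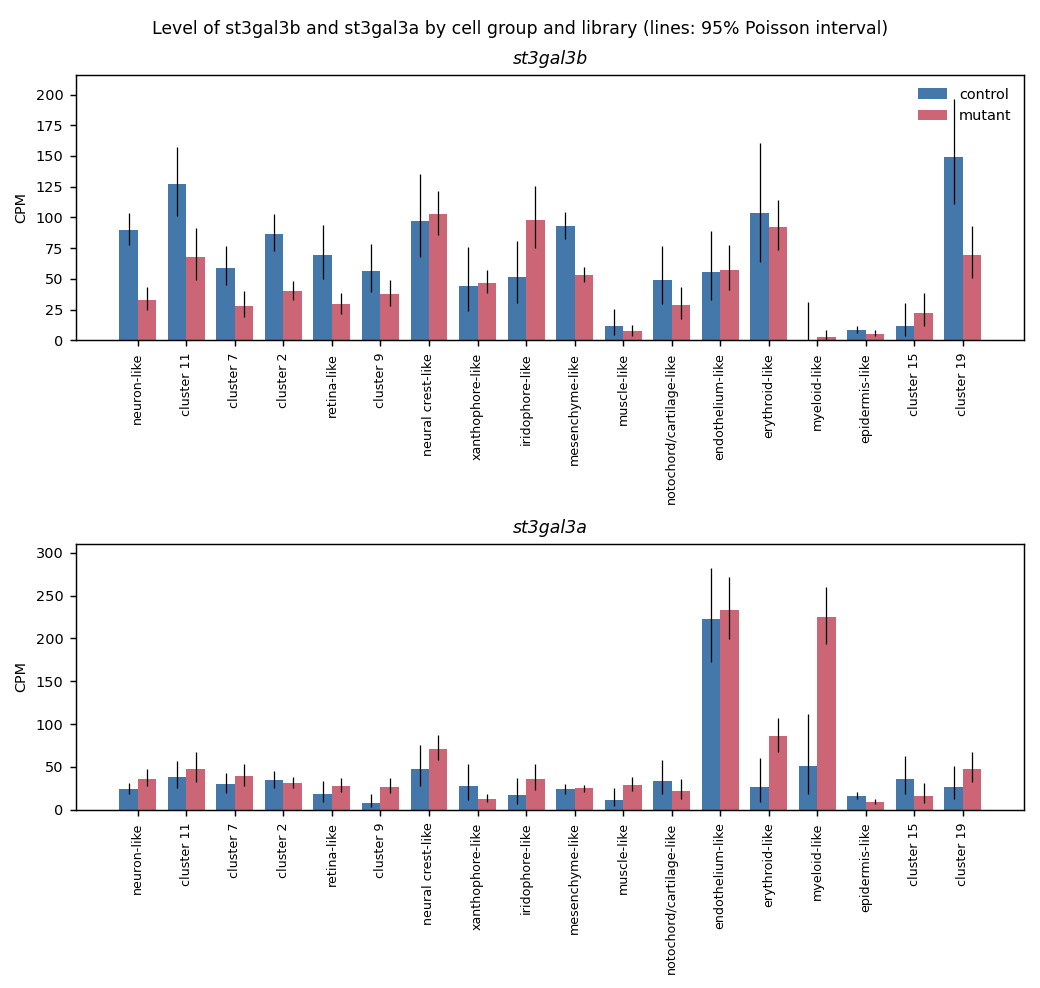
Bars give the level in CPM of st3gal3b (top) and st3gal3a (bottom) in each cell group, blue for the control and red for the mutant library, with 95% Poisson intervals for counting error. Red bars of st3gal3b are below the blue ones in neuron-like cells (32.9 against 90.1 CPM), retina-like cells and clusters 2, 7 and 11, and level with them in neural crest-like cells (102 against 97.1 CPM). Cluster 0, cluster 12 and liver and yolk-like cells are not drawn.

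The other 12 lower pairs were spread over 9 genes. b4galt2 was lower in cluster 2, at 47.8 and 18.3 CPM, a ratio of 0.383 (0.262 to 0.555), and in epidermis-like cells, from 21 and 12 UMIs. Its interval lay below 1 in 5 of 6 groups. The summed neuron markers were lower in both of those groups as well, at 1554 and 627 CPM in cluster 2 and at 205 and 72.4 CPM in epidermis-like cells, and their part in the ratios of b4galt2 was not tested. fut8a was lower in cluster 2, at 80.1 and 38.3 CPM, a ratio of 0.479 (0.366 to 0.626), and in epidermis-like cells, at 12.1 and 5.70 CPM, a ratio of 0.472 (0.285 to 0.768). The part of the neuron markers in these ratios was not tested either. By the size rule 1462 of 11514 genes were lower in cluster 2 and 1116 of 12503 in epidermis-like cells. Scaled by the trimmed mean of M-values within the group, lower members went from 3 to 1 in cluster 2. In epidermis-like cells they went from 4 to 1. st8sia1 was lower in cluster 7, at 107 and 44.7 CPM, a ratio of 0.418 (0.289 to 0.596), the value with 20.5% of the UMIs in 1 cell.

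b3gnt5a was lower in cluster 9, at 35.4 and 8.70 CPM, a ratio of 0.246 (0.114 to 0.510), with 22.9% of its UMIs there in 1 cell, and in cluster 11, from 20 and 7 UMIs. st8sia6 was lower in neuron-like cells, at 19.3 and 7.39 CPM, a ratio of 0.382 (0.177 to 0.757). st6galnac3, at 0.317 (0.129 to 0.711), and b4galt7, at 0.426 (0.177 to 0.963), were lower in epidermis-like cells. b4galt3, at 0.344 (0.142 to 0.753), was lower in cluster 11, and b4galt5, at 0.334 (0.119 to 0.821), in cluster 7. The pairs of this last group rested on 27 to 36 UMIs.

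Besides st3gal3a in cluster 9, 3 pairs were higher. b4galt6 was at 45.7 CPM in control and 116 CPM in mutant retina-like cells, a ratio of 2.54 (1.69 to 3.95), from 27 and 190 UMIs. The neural progenitor and neuron marker sums of retina-like cells, given above, were lower in the mutant library. At resolution 2, one retina-like cluster had medians of 1507.5 control and 5254 mutant UMIs and another of 11333 and 7869 UMIs. Their part in the ratio of b4galt6 was not tested. b3gnt7, the counterpart of a mammalian keratan sulfate enzyme, was at 8.55 and 18.9 CPM in epidermis-like cells, a ratio of 2.21 (1.48 to 3.38), of which cluster 6 held most UMIs. fut8b was at 6.13 and 14.1 CPM in neuron-like cells, a ratio of 2.30 (1.1 to 5.0), from 13 and 21 UMIs. The lower ratios of fut8a were in other groups, and in neuron-like cells its level, given above, was not lower in the mutant library. The difference between fut8b and fut8a was not tested.

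Genes that supply or remove the same sugars were counted over all cells by the interval, which lay below 1 for 36.2% and above 1 for 17.7% of all genes. At equal weights these shares were 28.6% and 15.9%. All 5 genes of GDP-fucose supply were lower, the fucokinase gene fuk at 2.46 and 0.920 CPM with a ratio of 0.374 (0.223 to 0.618) and fpgt, which acts after it in fucose salvage, at 2.57 and 0.952 CPM with a ratio of 0.370 (0.223 to 0.605). At equal weights fuk was at 0.359 (0.219 to 0.590) and fpgt at 0.320 (0.195 to 0.526), while gmds, of the synthesis from GDP-mannose, was at 1.06 (1.01 to 1.11), so that 4 of the 5 were lower and 1 higher there. Of 6 genes of CMP-sialic acid supply 2 were lower, gne with a ratio of 0.622 and nansb with 0.649, and at equal weights 1 was. Of 8 genes of UDP-N-acetylglucosamine supply 3 were lower, and at equal weights 1 was higher and 1 lower. Of 9 genes of UDP-galactose supply 3 were higher and 1 lower, galt being higher with a ratio of 1.38 (1.27 to 1.5), and at equal weights 1 was higher and none lower, with galt at 1.09 (0.992 to 1.19).

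Of 10 genes whose enzymes remove end sugars, 6 were higher and 1, the sialidase gene neu3.2, was lower with a ratio of 0.625 (0.498 to 0.784). The β-galactosidase genes glb1 and glb1l had ratios of 2.0 (1.56 to 2.60) and 1.94 (1.67 to 2.25), and the hexosaminidase gene hexb one of 1.77 (1.57 to 1.99). At equal weights these were 1.40, 1.2 and 1.40, and 5 of the 10 genes were higher and 1 lower. A last list of 16 genes was mostly of other galactose and N-acetylgalactosamine transfer. It also held ugcg, pofut1, pofut2 and c1galt1c1, whose products do not transfer these sugars. Of the 16, 1 was higher and 5 were lower, and 2 and 3 at equal weights. The 3 lower at equal weights included ugcg, with a ratio of 0.851 (0.788 to 0.919). b4galnt2.1 was the higher one, at 1.70 and 3.74 CPM with a ratio of 2.21 (1.46 to 3.44), and it had a ratio of 2.65 (1.74 to 4.05) at equal weights.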

How the data were processed

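The deposited UMI counts per gene and cell barcode were made by the authors with Cell Ranger on GRCz11, from 10x 3′ libraries, and the file headers name version 7.2.0. The deposited barcodes numbered 1923 control and 4120 mutant, with 17502003 and 31032783 UMIs. Here cells with over 200 genes and under 5% mitochondrial UMIs were kept. The libraries were integrated and clustered with Seurat 5.3.0 at resolution 1, with the 54 genes left out of the features. A class was named where at least 3 markers from a list were among the 50 leading genes of a cluster and no other list had as many among the first 10. Shallow clusters with no marker of their list among the first 10 stayed unnamed. Doublets were kept in. Scrublet's automatic threshold marked 1 control and 0 mutant cells and thus had not worked, and leaving out the 27 and 127 highest scores was an alternative. CPM have exact Poisson intervals and ratios exact conditional binomial intervals at 95%. Equal weights are the mean share of UMIs of each cell group in both libraries, with delta-method intervals. Scaling by the trimmed mean of M-values used edgeR 4.0.16 for factors only. Statistics scripts were tested on simulated data.

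The members and gene lists were chosen with earlier results of these data known. Genes were named with values where they were among the 2 with most UMIs in a symbol family, passed the size rule over all cells or in a group, or had 50 UMIs with at least 40% in 1 group. Other genes named with values were chosen after their values were seen, as was the minimum for the highest group of 10 cells and 5 UMIs. Symbols came from the deposited gene list. No sequence or coordinate was used here.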

Additional observations from a re-analysis of the deposited data

Results flagged for a closer look

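Members whose 95% intervals lay above 1 in some cell groups and below 1 in others were picked out, and the differences between groups were not tested. For b4galt6 the ratio of mutant to control CPM was 2.54 in retina-like cells and 1.25 in cluster 2, and 0.529 in epidermis-like, 0.818 in mesenchyme-like and 0.787 in neuron-like cells and 0.627 in cluster 7. For st3gal3a it was 1.51 in neuron-like cells and 3.33 in cluster 9, and 0.573 in epidermis-like cells. For st8sia1 it was 1.72 in cluster 11, and 0.649 in cluster 2 and 0.418 in cluster 7, where 1 cell held 20.5% of the UMIs.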

How the results depend on the processing

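The count of members lower over all cells was 7, and it was 15 for a ratio of at least 1.5, 24 for the interval alone and 0 at equal cell-group weights. The count of members higher was 1, and it was 2 with TMM scaling (trimmed mean of M-values), 2 with totals without mitochondrial and ribosomal protein genes, 2 without the highest doublet scores, 3 for a ratio of at least 1.5, 4 with the mean of per-cell CPM and 6 for the interval alone. It was 0 for a draw of mutant cells to the control number, at equal weights, without the cell with most UMIs and for members with 50 or more UMIs. Shares of all genes are given above only for the main rule, the interval alone and equal weights. The counts at the other settings thus cannot be set against all genes. The sialyltransferase ratio was 0.864 with TMM scaling, 0.819 with the other totals, 0.949 with the per-cell mean and 0.841 at equal weights. The b4galt ratio was 0.857, 0.813, 0.995 and 0.831 in the same order. The fucosyltransferase ratio was 0.740 with TMM scaling, 0.878 with the per-cell mean and 0.908 at equal weights, and the b3gnt ratio 0.965 with TMM scaling. The mean of per-cell CPM turned the all-cell ratio of 5 members, b4galt6 to 1.19, fut9b to 1.06, st3gal4 to 1.12, st6gal2b to 1.26 and st6galnac3 to 1.0. Within groups, b4galt2 in epidermis-like cells went to 1.28 at resolution 2 and b4galt5 in cluster 7 to 1.3 at resolution 0.5. Another 36 of 324 all-cell and 3 of 128 within-group values of named members moved without turning. Of 174 shares of UMIs in the leading group, 63 moved, most of them at resolution 2 or with classes set by markers per cell. The cause was not tested. The share of cells with a member UMI was 92.2% in the control and 88.8% in the mutant library at 4919 UMIs, and 67.6% and 83.8% without thinning. With 1 library a group no replicate could be left out. No paired analysis was possible because each group had 1 library. Genes under 50 UMIs and the control pigment and myeloid-like cells are limited by depth.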
